A study of Mus musculus with 7 samples.

Results

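Imprinted genes are described here in fetal liver of the mouse with and without Pcbp2, whose product is an RNA-binding protein with a preference for cytosine-rich sequence. A list of 36 imprinted genes was looked up by name in the authors' deposited table. It found 34 of them, and Kcnq1ot1 and Peg13 are not analysed here. The 34 are part of 38924 genes counted in the files, and all 34 had enough reads to be tested. They fall into 8 clusters of 2 or more listed genes and 7 single loci on 9 chromosomes. Of the 34, 12 were classed as expressed from the maternal allele and 18 from the paternal allele. The other 4 (Ddc, Gnas, Ppp1r9a and Ube3a) were classed as expressed from 1 parental allele only in some tissues or transcripts. These classes were not checked in fetal liver, and a gene classed as maternal or paternal may also be imprinted in some tissues only. The samples were 3 Pcbp2 knockouts, replicates 3, 4 and 5 (KO), and 4 wild types, replicates 1 to 4 (WT). All 7 were fetal liver taken at 12.5 days post coitum, a stage at which the liver forms blood, and were sequenced as stranded mRNA libraries from total RNA. The labels name no strain, sex, litter, batch or further allele, do not say how the knockout was made, and do not say that each library came from a separate animal, so a p-value here reflects only how much these libraries vary, which may be technical.

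Imprinted genes are transcribed mainly from the copy inherited from 1 parent. DNA methylation laid down in egg or sperm at control regions marks the parental copies, and most imprinted genes lie in clusters that share such a region. Many act on fetal and placental growth: Igf2 is a growth factor, while Igf2r, Grb10 and Cdkn1c restrain growth. Read counts per gene do not separate the parental copies, so every level here is the sum of both alleles.

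Reads assigned to genes numbered 31898339 to 42378821 in KO and 32240949 to 44544889 in WT. Levels are in CPM, reads per 1000000 reads assigned to genes after TMM scaling of library sizes, and values of single libraries are listed in the order KO replicates 3, 4 and 5 and WT replicates 1, 2, 3 and 4. At these depths 3 reads correspond to 0.0662 to 0.102 CPM, which covers counting error only. The targeted gene checked the labels: Pcbp2 had 2.24, 1.39 and 2.22 CPM in KO, against 165, 329, 347 and 338 CPM in WT, with WT replicate 1 apart from the other WT libraries. Hepatoblast markers were present, with Afp, the fetal plasma carrier, at 4999 ± 519.8 CPM in KO (SD, n = 3) and 4939 ± 1584 CPM in WT (SD, n = 4). The 34 imprinted genes together held 1.83 ± 0.109% of all gene-assigned reads in KO (SD, n = 3) and 1.66 ± 0.169% in WT (SD, n = 4), and the 2 ranges, 1.73 to 1.94% in KO and 1.46 to 1.86% in WT, overlapped.

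Sequences of the 3 imprinted genes that passed the test are given first. Peg10, which derives from a retrotransposon, makes a longer protein when the ribosome slips back by a single base at the heptamer GGGAAAC. This site was found in the coding sequence of transcript Peg10-202 (GENCODE M21, coding base 1107 of 1128) at chr6:4755315-4755344, build mm10, plus strand, with the heptamer in capitals.
Peg10 frameshift site: gaattcgccgccGGGAAACtccccggcccc
Promoter windows, 250 bases before to 50 after a start site, came from RefSeq (build GRCm38.p6, the assembly of mm10) and covered 28 of the genes used here in 44 windows. They were searched on both strands for TGCCGC, bound by ZFP57 when methylated, for GGGGCCCC, a site of PLAGL1, and for AAGATGGC, a site of YY1. The 2 windows shown belong to Meg3 and Zrsr1. RefSeq gives a second Meg3 start, at the window chr12:109545148-109545447, which holds 1 CpG dinucleotide and none of the 3 motifs. Capitals mark TGCCGC on the other strand in the Meg3 window shown, and none of the 3 motifs is in the Zrsr1 window.
Meg3 promoter, chr12:109540746-109541045, plus strand: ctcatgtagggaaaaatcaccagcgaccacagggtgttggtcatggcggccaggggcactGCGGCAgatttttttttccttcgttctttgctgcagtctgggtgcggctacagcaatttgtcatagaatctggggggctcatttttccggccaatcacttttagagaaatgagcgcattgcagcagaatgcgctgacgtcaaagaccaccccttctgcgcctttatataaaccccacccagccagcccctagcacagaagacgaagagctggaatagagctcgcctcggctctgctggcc
Zrsr1 promoter, chr11:22971755-22972054, plus strand: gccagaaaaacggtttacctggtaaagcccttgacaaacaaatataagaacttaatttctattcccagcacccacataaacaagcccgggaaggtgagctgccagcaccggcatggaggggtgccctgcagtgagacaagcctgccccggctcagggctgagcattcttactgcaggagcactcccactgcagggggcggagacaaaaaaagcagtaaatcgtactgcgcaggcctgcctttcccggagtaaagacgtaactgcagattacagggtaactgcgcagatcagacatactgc
TGCCGC was in 10 of the 44 windows (of Grb10, Igf2, Meg3, Mest, Nnat, Plagl1, Snrpn, Zdbf2 and Zim1) and in 11.6% of all 32851 windows of that length. The 10 include 2 Mest windows that overlap almost wholly, starting at 30737800 and 30737803 on chromosome 6. GGGGCCCC was in 3 (Ppp1r9a, and Peg3 and Usp29, whose windows overlap), against 1.08% of all windows, and AAGATGGC in 1 (Ube3a), against 2.75%. The Meg3 window shown held 13 CpG dinucleotides and the Zrsr1 window 10, while the median was 13.5 over the 44 windows and 7 over all windows.

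Knockout against wild type asks what loss of Pcbp2 does to the liver transcriptome. Among the imprinted genes, Peg10 and Meg3 rose and Zrsr1 fell, while the other 31 did not pass the test (edgeR quasi-likelihood test, Benjamini-Hochberg adjusted p under 0.05 over 16226 genes). In either direction 3 of 34 passed, against 5.02% of all tested genes. Of these, 2 of 34 were higher in KO (5.88%), against 1.59% of all tested genes, and 1 of 34 was lower (2.94%), against 3.43% of all tested genes, a share near that background. Peg10 was the 1 imprinted gene of the 3 that changed at least 2-fold. An unadjusted p under 0.05 was found for 13 of the 34 and for 21.8% of all tested genes. All KO libraries lay above all WT libraries for 11 imprinted genes and below them for 4, a separation that 9.83% and 10.8% of all tested genes showed. The median log2 fold change of the 34 genes was -0.055, against 0.014 over all tested genes. Scaling by total counts moved the median of all genes to 0.14 and gave 651 genes higher and 393 lower, against 258 higher and 556 lower with TMM, so changes are relative to the typical gene. It gave 5 imprinted genes higher, as did DESeq2, while leaving out KO replicate 5 gave 1 higher and leaving out WT replicate 2 gave 4. Without WT replicate 1, the library with the lower Pcbp2 level, the log2 fold changes were 1.01 for Peg10, 0.78 for Meg3 and -0.65 for Zrsr1, and all 3 still passed (edgeR adjusted p = 0.0128, 0.0326 and 0.0474).

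**Figure D1:**
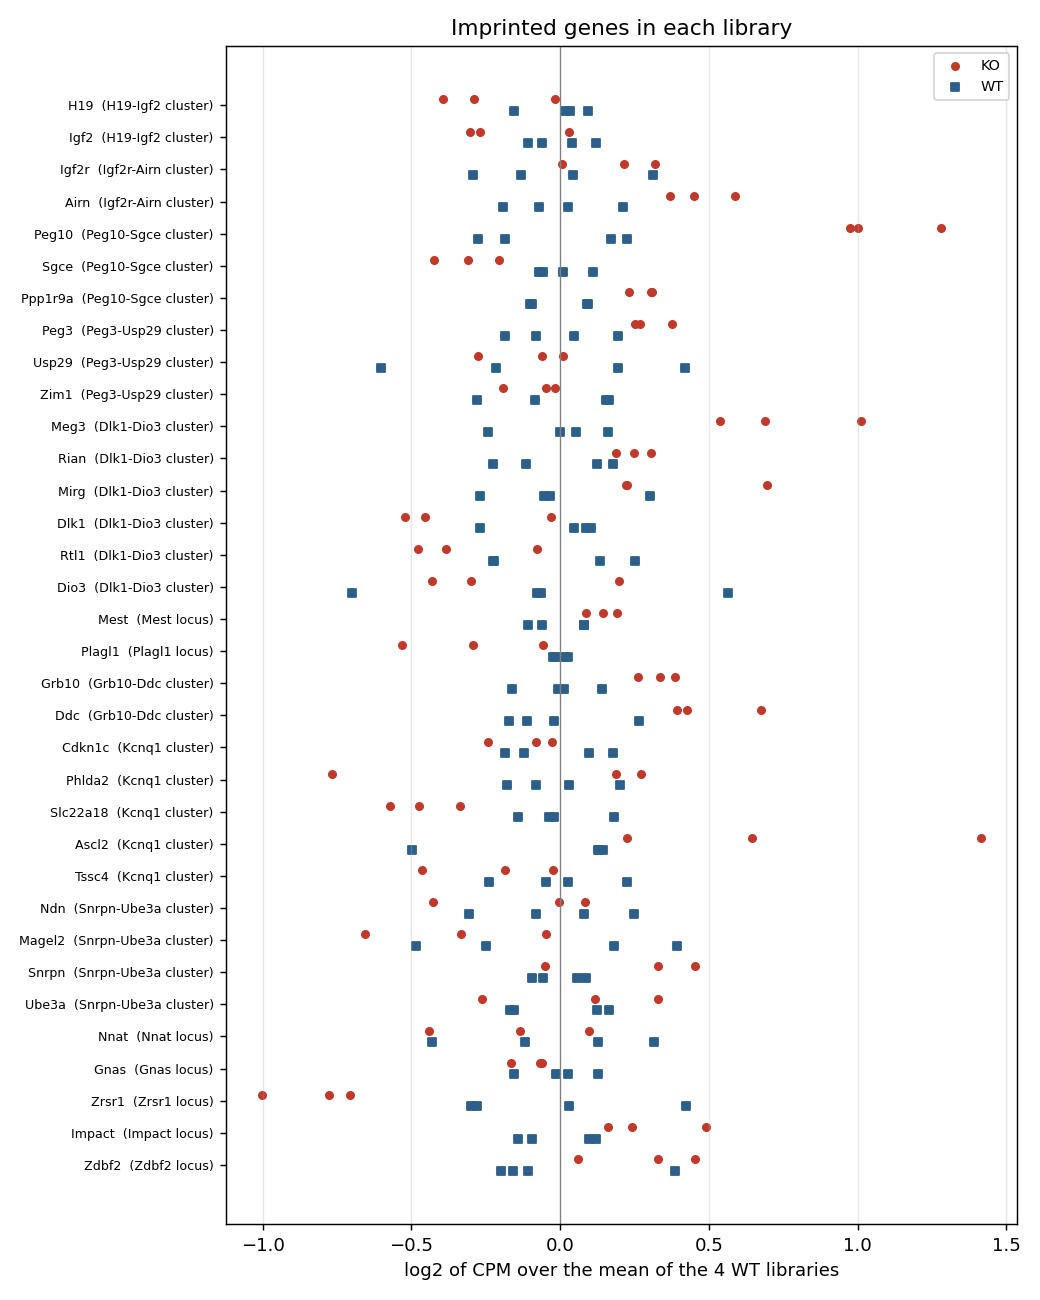
Each row is an imprinted gene and each point a library (KO above, red circles; WT below, blue squares), placed by the log2 of its CPM over the mean of the 4 WT libraries. Peg10 and Meg3 stand to the right and Zrsr1 to the left in all 3 KO libraries, with no overlap with WT, while H19 and Igf2 overlap.

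In the Peg10-Sgce cluster on chromosome 6, Peg10 rose about 2-fold, and neither of the other listed genes passed. Peg10 (ENSMUSG00000092035.2, 4747306 to 4760517, mm10) is a paternally expressed gene needed for the mouse placenta. It had 1299.9, 1050.4 and 1071 CPM in KO, against 442, 626, 601 and 470.4 CPM in WT. Every KO library was above every WT library, and the mean was 1140.4 ± 139 CPM in KO (SD, n = 3) and 535 ± 92.2 CPM in WT (SD, n = 4). The log2 fold change was 1.09 with an SE of 0.15 (edgeR adjusted p = 0.00552), a 2.13-fold difference. It passed under all 15 alternatives, with log2 fold changes from 0.99 to 1.21. Sgce encodes epsilon-sarcoglycan, a membrane protein, is also paternally expressed, and lies up to 4747207, just before the Peg10 start at 4747306, on the opposite strand. It had 20.8, 24.2 and 22.5 CPM in KO, against 26.9, 30.2, 26.6 and 28.1 CPM in WT. All KO libraries were below all WT libraries, but the log2 difference of -0.31 with an SE of 0.11 (edgeR adjusted p = 0.119) did not pass. Ppp1r9a, which encodes the actin-binding protein neurabin, had 86.5, 82.1 and 86.7 CPM in KO, against 65.5, 74.7, 74.4 and 65.3 CPM in WT. Its groups did not overlap either, with KO higher, and its log2 difference was 0.28 with an SE of 0.090 (edgeR adjusted p = 0.103), or 0.0413 with total-count scaling. Within each library, the ratio of Peg10 to Sgce CPM was 62.4, 43.3 and 47.5 in KO, against 16.4, 20.7, 22.6 and 16.7 in WT. The ratio of Peg10 to Ppp1r9a CPM was 15.02, 12.8 and 12.4 in KO, against 6.75, 8.38, 8.08 and 7.21 in WT. Both ratios were higher in every KO library than in every WT library. They share the Peg10 reads of the fit above, so they add no separate evidence, and they were not tested. Of the 6 tested genes within 500 kb of Peg10, none was called by edgeR, limma-voom or DESeq2. Of these 6, 3 had an unadjusted edgeR p under 0.05, against 21.8% of all tested genes. Log2 differences of the 6 ran from -0.33 for Pon1, a paraoxonase, to 0.28 for Ppp1r9a.

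**Figure D2:**
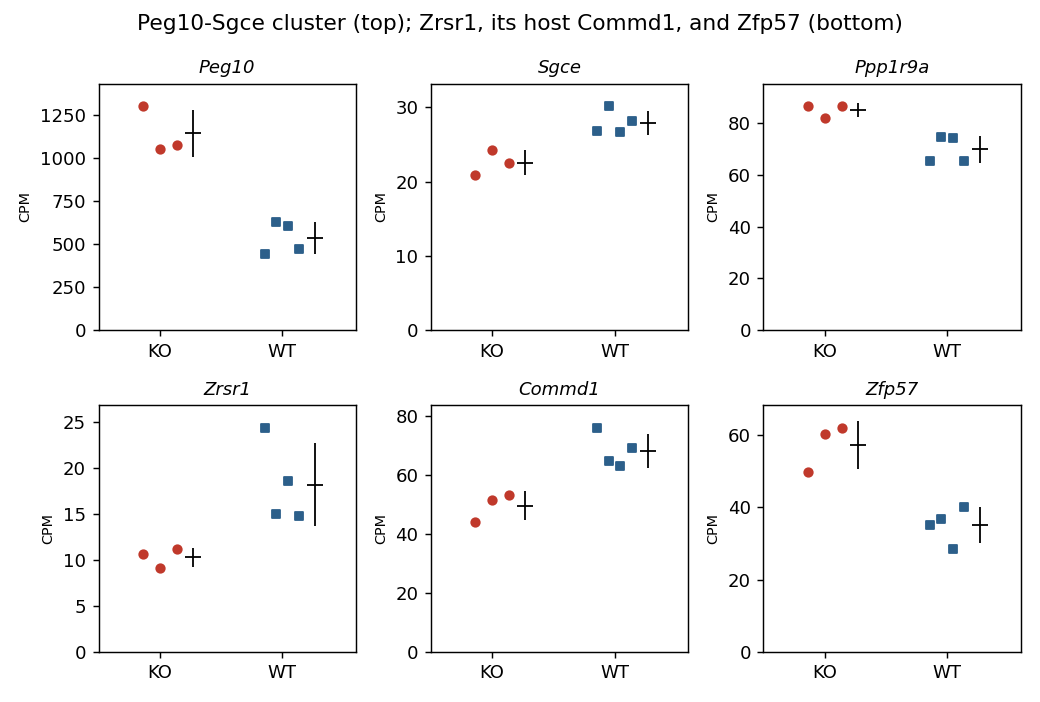
CPM (linear axis from 0) of 6 genes in each library, KO left and WT right, with mean and SD beside the points (n = 3 KO and 4 WT). Peg10 is higher in all 3 KO libraries (1050.4 to 1299.9 CPM) than in WT (442 to 626 CPM), Zfp57 is also higher, and Sgce, Zrsr1 and Commd1 are lower.

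On the Dlk1-Dio3 cluster of chromosome 12, the noncoding RNA Meg3 rose, while no protein-coding gene of the cluster passed. The maternal copy makes the noncoding RNAs Meg3, Rian and Mirg, which carry microRNAs and small nucleolar RNAs, and the paternal copy makes the protein-coding genes Dlk1, Rtl1 and Dio3. Meg3 (ENSMUSG00000021268.11, 109541001 to 109571726) had 421, 585 and 467 CPM in KO, against 301, 245, 289.5 and 324 CPM in WT. No WT library reached the lowest KO library. The means were 491 ± 84.5 CPM in KO (SD, n = 3) and 289.9 ± 33.2 CPM in WT (SD, n = 4), and the log2 fold change was 0.76 with an SE of 0.14 (edgeR adjusted p = 0.0145), a 1.69-fold difference. The call ended when KO replicate 5 was left out, at 0.80 (edgeR adjusted p = 0.0632). Rian, which hosts small nucleolar RNAs, had 627, 681 and 654 CPM in KO, against 624, 471, 509.6 and 601 CPM in WT. Its groups did not overlap, yet its log2 difference was 0.25 with an SE of 0.12 (edgeR adjusted p = 0.265). Mirg, a microRNA host, had 27.1, 37.6 and 27.1 CPM in KO, against 22.3, 19.2, 22.6 and 28.6 CPM in WT. WT replicate 4 lay within the KO range, and the log2 difference was 0.40 with an SE of 0.16 (edgeR adjusted p = 0.187).

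Each paternally expressed gene of the cluster had a log2 difference below 0 in the fit to all 7 libraries, and none passed with edgeR, limma-voom or DESeq2 or had an unadjusted edgeR p under 0.05. Dlk1, a membrane ligand related to Notch ligands and a surface marker of hepatoblasts, had 587, 825 and 615 CPM in KO, against 699.9, 871, 906 and 896 CPM in WT. KO replicate 4 and WT replicate 1 made the groups overlap, and the log2 difference was -0.32 with an SE of 0.15 (edgeR adjusted p = 0.243). Rtl1, a retrotransposon-derived gene needed for placental vessels in the mouse, had 5.25 to 6.93 CPM in KO and 6.26 to 8.70 CPM in WT, with a log2 difference of -0.31 with an SE of 0.18 (edgeR adjusted p = 0.353). Dio3, which inactivates thyroid hormone, had 0.856 to 1.32 CPM in KO and 0.711 to 1.71 CPM in WT. Its log2 difference was -0.15 with an SE of 0.33 (edgeR adjusted p = 0.828), and its sign turned with the replicate block and without WT replicate 2. Within each library the ratio of Meg3 to Dlk1 CPM was 0.717, 0.709 and 0.759 in KO, against 0.430, 0.281, 0.320 and 0.362 in WT. For Rian to Dlk1 it was 1.07, 0.826 and 1.06 in KO, against 0.892, 0.541, 0.563 and 0.670 in WT. For Mirg to Dlk1 it was 0.0462, 0.0456 and 0.0440 in KO, against 0.0319, 0.0221, 0.0250 and 0.0319 in WT. The Meg3 and Mirg ratios were higher in every KO library than in every WT library, while the Rian ratio overlapped. Meg3 also stood higher against Rian, at 0.671, 0.858 and 0.714 in KO, against 0.482, 0.520, 0.568 and 0.539 in WT. These ratios share the reads of the fit above and were not tested.

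**Figure D3:**
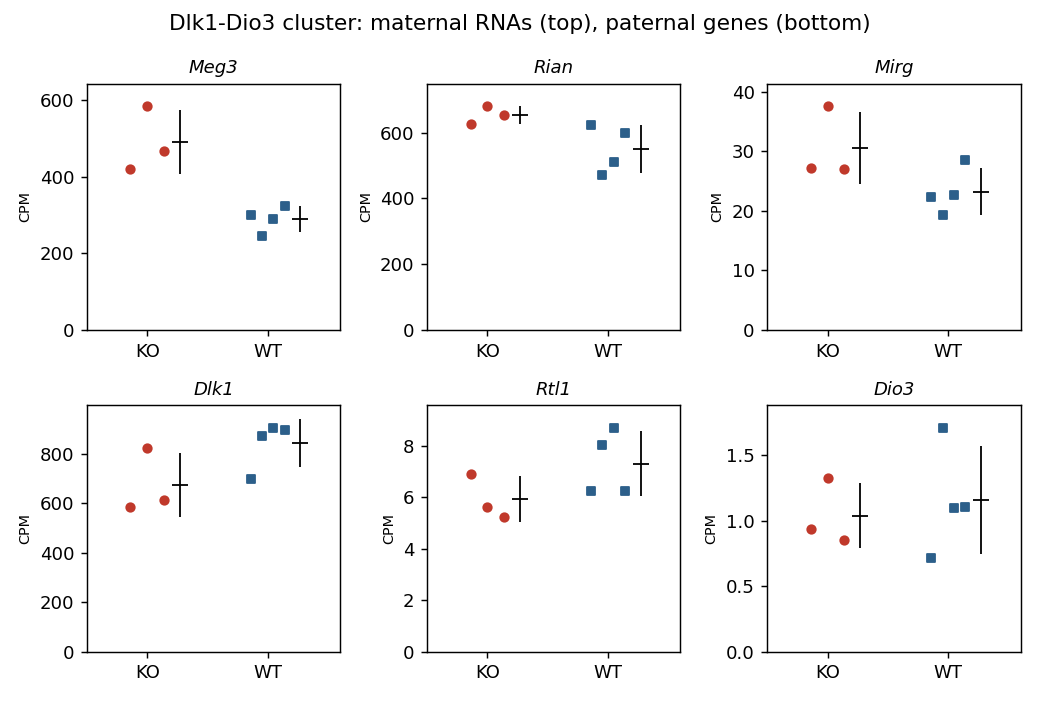
CPM (linear axis from 0) of the 6 listed genes of the Dlk1-Dio3 cluster in each library, KO left and WT right, with mean and SD beside the points (n = 3 KO and 4 WT). The groups are apart for Meg3 and, by a small margin, for Rian, and overlap for the other 4 genes.

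Other transcripts between Dlk1 and Dio3 (chromosome 12, 109452823 to 110281097) were read too. The files hold 95 genes there, of which 59 are microRNA genes. Reads were assigned to 36 of these microRNA genes, but none had enough reads to be tested, and mRNA libraries do not measure mature microRNAs. Of the 10 genes tested, 2 were higher in KO, Meg3 and Gm26945. Gm26945 is a noncoding RNA gene at 109640341 to 109642351 that lies inside the span of Rian on the same strand, and it is named here after its values were seen. It had 3.60, 2.52 and 2.54 CPM in KO, against 1.56, 0.952, 1.396 and 1.26 CPM in WT, a log2 fold change of 1.16 with an SE of 0.25 (edgeR adjusted p = 0.0303). Leaving out KO replicate 3, 4 or 5 or WT replicate 3 or 4 ended that call, with adjusted p from 0.0600 to 0.0935. Endothelial markers were higher alongside Meg3, and 5 of 18 were called higher, against 1.59% of all tested genes. Their summed level was 577, 555 and 474 CPM in KO, against 340.1, 389, 459.7 and 385 CPM in WT. The highest sum was in KO replicate 3 and the highest Meg3 level in KO replicate 4. Among WT libraries the highest sum was in replicate 3 and the highest Meg3 level in replicate 4. A change in the number of cells of a type and a change in RNA per cell cannot be told apart in these bulk samples. The part of the endothelial markers in the Meg3 result was not tested.

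Zrsr1, a retrogene for a U2 auxiliary factor-related splicing protein, fell, and so did the gene that contains it. Zrsr1 (ENSMUSG00000044068.5, chromosome 11, 22972005 to 22976496) is transcribed from the paternal allele inside the span of Commd1, a copper and endosome trafficking gene that runs from 22896136 to 22982382 on the opposite strand. The libraries held 350, 411 and 390 Zrsr1 reads in KO and 719, 613, 678 and 642 in WT. Scaled, this was 10.6, 9.07 and 11.1 CPM in KO, against 24.3, 14.96, 18.6 and 14.8 CPM in WT. WT replicate 1 was the highest, and the lowest WT library was still above the highest KO library. The log2 fold change was -0.82 with an SE of 0.19 (edgeR adjusted p = 0.0340), so that WT was 1.77-fold above KO. Its call ended without KO replicate 3 (edgeR adjusted p = 0.0628), KO replicate 4 (0.109), KO replicate 5 (0.112) or WT replicate 3 (0.0820). Commd1, maternally biased in adult mouse brain, had 44.0, 51.6 and 53.1 CPM in KO, against 76.0, 64.7, 62.9 and 69.2 CPM in WT. The groups were apart here as well, with a log2 fold change of -0.46 with an SE of 0.11 (edgeR adjusted p = 0.0380). That call ended with total-count scaling (edgeR adjusted p = 0.0795) and when any library but WT replicate 2 was left out (up to 0.114). The ratio of Zrsr1 to Commd1 CPM within a library was 0.241, 0.176 and 0.210 in KO, against 0.320, 0.231, 0.295 and 0.214 in WT, and the groups overlapped. Annotated exons of the 2 genes overlap on opposite strands, and no source used here gives the strand setting of the counting, so reads of 1 may have been assigned to the other. Commd1 was the 1 gene called among 8 tested within 500 kb of Zrsr1, while 3.43% of all tested genes were called lower. Erythroid markers were lower in KO as well, with summed levels of 16847, 12467 and 16068 CPM. In WT they summed to 90823, 50492, 72841 and 63713 CPM. WT replicate 1 held the highest WT value of that sum, of Zrsr1 and of Commd1. The part of erythroid RNA in the Zrsr1 and Commd1 results was not tested.

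The most abundant imprinted genes, H19 and Igf2, had groups that overlapped. They lie next to each other on chromosome 7 and share enhancers, H19 as a noncoding RNA from the maternal allele and Igf2 as a fetal growth factor from the paternal one. H19 had 3649.5, 4406 and 3397 CPM in KO, against 4009, 4568, 4518 and 4759.8 CPM in WT, a log2 difference of -0.23 with an SE of 0.13 (edgeR adjusted p = 0.341). Igf2 had 2711, 2201 and 2150.1 CPM in KO, against 2542, 2885, 2724 and 2459 CPM in WT, a log2 difference of -0.17 with an SE of 0.12 (edgeR adjusted p = 0.460). KO replicate 4 was within the WT range for H19 and KO replicate 3 was for Igf2. The ratio of H19 to Igf2 CPM was 1.35, 2.001 and 1.58 in KO, against 1.58, 1.58, 1.66 and 1.94 in WT, and the KO range enclosed the WT one. Of the reads on imprinted genes, H19 took 20.6 to 24.3% in KO and 25.04 to 27.4% in WT. The total of those reads includes Peg10, which was called higher in KO, so this share does not measure H19 alone.

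Igf2r, the receptor that clears IGF2 by carrying it to lysosomes, had 439.8, 409.8 and 355 CPM in KO, against 288, 363, 438 and 322 CPM in WT. WT replicate 3 was as high as the KO libraries, and the log2 difference was 0.19 with an SE of 0.15 (edgeR adjusted p = 0.503). Airn, the paternal noncoding RNA that overlaps Igf2r on the opposite strand and silences it on that copy, had 11.6, 12.2 and 13.5 CPM in KO, against 9.11, 10.3, 7.83 and 8.51 CPM in WT. All KO libraries were above all WT libraries, and the log2 difference was 0.47 with an SE of 0.13 (edgeR adjusted p = 0.0740). Airn passed with total-count scaling (edgeR adjusted p = 0.0463), with DESeq2 (0.0244) and without WT replicate 2 (0.0407). Among 19 tested genes of the insulin-like growth factor axis, 2 were higher (10.5%, against 1.59% of all tested genes) and none lower. Of the others, 5 had an unadjusted edgeR p under 0.05 with KO higher and 2 with KO lower, and DESeq2 called 3 of these others higher and none lower. Igf2bp1, which binds Igf2 mRNA, had 171, 164 and 169.96 CPM in KO, against 116, 113, 123 and 119.7 CPM in WT. The log2 fold change was 0.51 with an SE of 0.079 (edgeR adjusted p = 0.00800), but the call ended without KO replicate 5 (0.0629). Igf2bp2, its relative, had 165, 173 and 182 CPM in KO, against 124, 143, 129 and 138 CPM in WT. Its log2 fold change was 0.38 with an SE of 0.088 (edgeR adjusted p = 0.0383), and its call ended without KO replicate 4 or 5 or WT replicate 1, 3 or 4 and without the filter on low counts (up to 0.187). The median of the 19 was 0.20, against 0.014 over all tested genes. An unadjusted edgeR p under 0.05 was found for 9 of the 19 and for 21.8% of all tested genes.

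None of the 5 genes of the Kcnq1 cluster on chromosome 7 passed with edgeR, limma-voom or DESeq2. Among them 1 had an unadjusted edgeR p under 0.05, as did 21.8% of all tested genes. Cdkn1c, an inhibitor of cyclin-dependent kinases, had 644, 747 and 720.3 CPM in KO, against 701, 862, 669 and 814 CPM in WT. The groups overlapped, with a log2 difference of -0.11 with an SE of 0.12 (edgeR adjusted p = 0.633), and its sign turned with total-count scaling. Tssc4, which takes part in spliceosome recycling in human cells, had 21.95, 29.7 and 26.6 CPM in KO, against 25.6, 30.8, 29.3 and 35.3 CPM in WT, a log2 difference of -0.21 with an SE of 0.14 (edgeR adjusted p = 0.417). Its annotated exons overlap Trpm5 on the opposite strand. The other 3 were at low levels, and are given by their ranges. Slc22a18, a transporter, had 1.33 to 1.57 CPM in KO and 1.79 to 2.24 CPM in WT, without overlap, and with a log2 difference of -0.45 with an SE of 0.22 (edgeR adjusted p = 0.260). Phlda2, a placental growth inhibitor, had 2.03 to 4.17 CPM in KO and 3.05 to 3.97 CPM in WT, with a log2 difference of -0.026 with an SE of 0.26 (edgeR adjusted p = 0.966). Ascl2, a transcription factor of the trophoblast, had 0.542 to 1.24 CPM in KO and 0.328 to 0.513 CPM in WT, with a log2 difference of 0.86 with an SE of 0.36 (edgeR adjusted p = 0.199). Its groups did not overlap. Trophoblast markers were near 0, with 6 of 14 at 0 reads in all libraries (Ctsq, Prl2c2, Prl3d1, Rhox6, Rhox9 and Tpbpa) and a summed level of 6.50 to 10.6 CPM in KO and 4.13 to 8.74 CPM in WT.

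Grb10 and Ddc, neighbours on chromosome 11, both had KO libraries above all WT libraries and missed the threshold. Grb10, an adaptor that dampens insulin and IGF1 receptor signalling, had 1400.1, 1527 and 1476 CPM in KO, against 1045, 1289.6, 1163 and 1179 CPM in WT. Its log2 difference was 0.33 with an SE of 0.11 (edgeR adjusted p = 0.116), and DESeq2 called it (adjusted p = 0.0197). Ddc, the decarboxylase that makes dopamine and serotonin, had 24.5, 29.2 and 24.0 CPM in KO, against 16.9, 21.9, 16.2 and 18.01 CPM in WT. Here the log2 difference was 0.50 with an SE of 0.13 (edgeR adjusted p = 0.0602), past the threshold with total-count scaling (0.0455), with DESeq2 (0.0118) and without WT replicate 2 (0.0220). A transcript of Ddc is paternally expressed in embryonic heart of the mouse. The summed level of 12 heart muscle markers was 428, 107 and 201 CPM in KO and 86.6, 159, 95.0 and 123 CPM in WT. Of 11 tested, 3 were higher by edgeR, against 1.59% of all tested genes, 4 by DESeq2 and none by limma-voom. The highest heart level was in KO replicate 3 and the highest Ddc level in KO replicate 4, and the part of heart RNA in the Ddc values was not tested.

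Peg3, a zinc finger gene that affects growth and maternal care in the mouse, had 1924, 1764 and 1782 CPM in KO, against 1301, 1694, 1528 and 1401 CPM in WT. The KO libraries were all higher, while the log2 difference of 0.30 with an SE of 0.12 (edgeR adjusted p = 0.179) did not pass. Zim1, a maternally expressed zinc finger gene beside it, had 109, 106 and 96.2 CPM in KO, against 90.6, 122, 123 and 104 CPM in WT, with overlap and a log2 difference of -0.084 with an SE of 0.12 (edgeR adjusted p = 0.728). Its sign turned with total-count scaling. Usp29, a ubiquitin protease gene whose promoter window overlaps that of Peg3, was the least abundant of the list per length, at 1.15 to 1.397 CPM in KO and 0.914 to 1.85 CPM in WT, with a log2 difference of -0.11 with an SE of 0.29 (edgeR adjusted p = 0.859). With total-count scaling or without WT replicate 2 its difference lay above 0.

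In the cluster of Prader-Willi and Angelman syndromes, on chromosome 7 of the mouse, no gene passed with edgeR, limma-voom or DESeq2 and none had an unadjusted p under 0.05. Ndn, a growth suppressor of postmitotic neurons, had 58.7, 83.8 and 78.8 CPM in KO, against 74.7, 93.9, 63.9 and 83.6 CPM in WT, a log2 difference of -0.10 with an SE of 0.15 (edgeR adjusted p = 0.754). Its groups overlapped widely, and its sign turned with total-count scaling and without KO replicate 3. Snrpn, a small nuclear ribonucleoprotein, had 13.2, 17.2 and 18.7 CPM in KO, against 12.8, 14.2, 13.2 and 14.5 CPM in WT. KO replicate 3 was within the WT range, and the log2 difference was 0.26 with an SE of 0.14 (edgeR adjusted p = 0.300). Reads that also overlap the annotated Snurf transcripts cannot be told from those of Snrpn. Ube3a, a ubiquitin ligase silenced on the paternal copy in neurons only, had 144, 95.6 and 125 CPM in KO, against 125, 103, 129 and 102 CPM in WT, with a log2 difference of 0.082 with an SE of 0.15 (edgeR adjusted p = 0.789) that turned below 0 without KO replicate 3. Magel2, a ubiquitin ligase cofactor, had 0.993 to 1.51 CPM in KO and 1.12 to 2.05 CPM in WT, with a log2 difference of -0.34 with an SE of 0.29 (edgeR adjusted p = 0.546).

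Of the 6 single loci other than Zrsr1, none passed with edgeR, limma-voom or DESeq2. Among them 2 (Plagl1 and Impact) had an unadjusted edgeR p under 0.05, as did 21.8% of all tested genes. Mest, a hydrolase-like gene of mesoderm, had 1079.8, 1160.3 and 1125 CPM in KO, against 944, 1074, 976 and 1076 CPM in WT, a log2 difference of 0.14 with an SE of 0.10 (edgeR adjusted p = 0.468). The groups were apart by a small margin. Plagl1, a zinc finger transcription factor that activates other imprinted genes in the mouse, had 1207, 1026 and 870.1 CPM in KO, against 1236, 1279.9, 1268 and 1245 CPM in WT. All KO libraries were below WT, where the 4 libraries lay close together, and the log2 difference was -0.28 with an SE of 0.12 (edgeR adjusted p = 0.221). Impact, a regulator of the eIF2 kinase GCN2, had 56.1, 53.1 and 66.7 CPM in KO, against 50.7, 51.6, 44.5 and 43.0 CPM in WT. Its KO libraries were all higher, with a log2 difference of 0.31 with an SE of 0.11 (edgeR adjusted p = 0.150). Zdbf2, a zinc finger gene, had 62.1, 47.3 and 57.0 CPM in KO, against 42.1, 59.3, 40.6 and 39.5 CPM in WT. WT replicate 2 was as high as KO, and the log2 difference was 0.29 with an SE of 0.16 (edgeR adjusted p = 0.313). Nnat, a small membrane protein of endocrine and neural cells, had 174, 216 and 253 CPM in KO, against 218, 294, 176 and 259 CPM in WT, a log2 difference of -0.14 with an SE of 0.18 (edgeR adjusted p = 0.690). Gnas, which encodes the stimulatory G protein alpha subunit and several overlapping transcripts that gene counts merge, had 860.4, 921 and 924 CPM in KO, against 956, 1053, 867 and 983 CPM in WT. The groups overlapped, with a log2 difference of -0.10 with an SE of 0.11 (edgeR adjusted p = 0.641), whose sign turned with total-count scaling.

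Per kilobase of annotated exon, the imprinted genes ranged from 0.0715 to 1552 CPM in KO and from 0.0768 to 1814 CPM in WT. H19 was first in both groups, at 1552 ± 213 in KO and 1814 ± 130.4 in WT CPM per kilobase (SD, n = 3 and 4). Igf2 followed with 411 ± 54.1 in KO and 464 ± 33.3 in WT, Cdkn1c with 345 ± 26.2 in KO and 373 ± 44.9 in WT and Mest with 284 ± 10.2 in KO and 258 ± 17.3 in WT. Peg10 and Grb10 were neighbours in the KO order, and their gap was within the SD of Peg10. In WT, Igf2 and Cdkn1c were further apart than either SD, while the gaps from Dlk1 to Nnat and from Nnat to Grb10 were within the SD of Nnat. Peg10 ranked 5th of 34 in KO and 11th in WT, at 171 ± 20.8 in KO and 80.2 ± 13.8 in WT. Meg3 ranked 14th in KO and 16th in WT (27.1 ± 4.67 in KO and 16.02 ± 1.84 in WT), below Rian, which was 13th in both. Zrsr1 ranked 27th in KO and 22nd in WT (2.28 ± 0.237 in KO and 4.04 ± 0.997 in WT). Within the Peg10 pair, Sgce was at 2.12 ± 0.161 in KO and 2.63 ± 0.153 in WT. The lower end held Dio3, Magel2, Ascl2 and Usp29, all under 1 CPM per kilobase in both groups. Exon lengths are the union over all transcripts of GENCODE M21, so the level of a gene with long rare transcripts is understated.

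**Figure D4:**
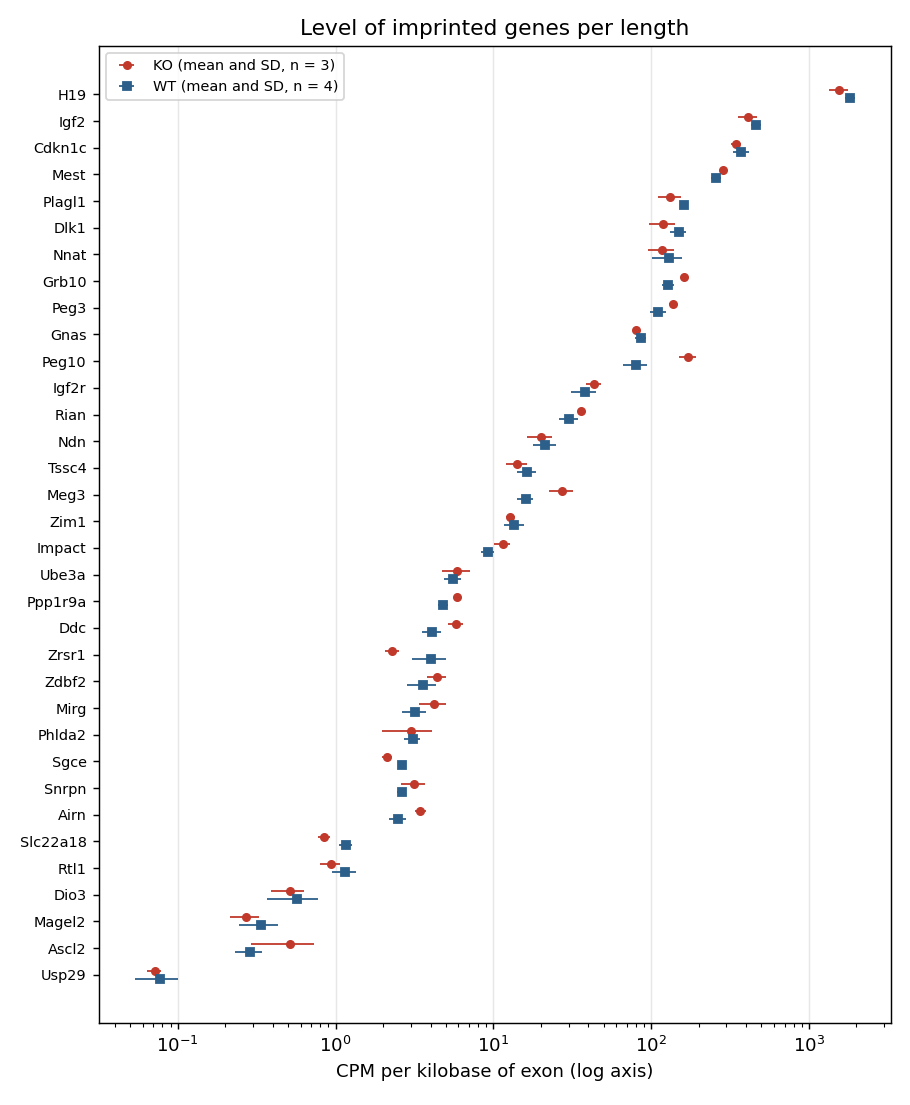
Mean CPM per kilobase of exon (log axis) of the 34 imprinted genes, with SD bars, for KO (red circles, above, n = 3) and WT (blue squares, below, n = 4), ordered by the WT level. H19 and Igf2 lead in both groups, and Peg10, Meg3 and Zrsr1 show clear gaps between the groups.

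By expressed allele, the 3 genes called by edgeR fell in both parental classes, too few to compare the classes. Those called higher were 8.33% of the maternal and 5.56% of the paternal genes, against 1.59% of all tested genes. Those called lower were 5.56% of the paternal genes, against 3.43% of all tested genes. An unadjusted edgeR p under 0.05 was found for 21.8% of all tested genes. Of 12 maternally expressed genes, edgeR and limma-voom called 1 higher (Meg3) and DESeq2 called 2 (Meg3 and Grb10). No maternal gene was called lower by any of these, and by an unadjusted edgeR p under 0.05, 4 were higher and none lower. Their median log2 difference was 0.080. Of 18 paternally expressed genes, edgeR and limma-voom called 1 higher (Peg10) and 1 lower (Zrsr1), while DESeq2 called 2 higher (Peg10 and Airn) and 1 lower. By an unadjusted edgeR p under 0.05, 4 were higher and 3 lower, and the median was -0.13. The 4 genes classed as tissue-dependent had no edgeR call, 1 DESeq2 call (Ddc), 2 with an unadjusted edgeR p under 0.05 (Ddc and Ppp1r9a) and a median of 0.18. Log2 differences lay above 0 for 6 of the 12 maternal and 7 of the 18 paternal genes, and for 8452 of the 16226 tested genes. With total-count scaling the medians were 0.21 for the maternal genes, -0.014 for the paternal genes and 0.14 for all tested genes. Under that scaling 22 of all 34 lay above 0, against 16 in the TMM fit. In the Dlk1-Dio3 cluster the maternal RNAs lay at 0.76, 0.40 and 0.25 and the paternal genes at -0.15, -0.31 and -0.32 on the log2 scale. In the Peg10-Sgce cluster the paternal genes Peg10 and Sgce lay on opposite sides of 0. No difference between the classes was tested.

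**Figure D5:**
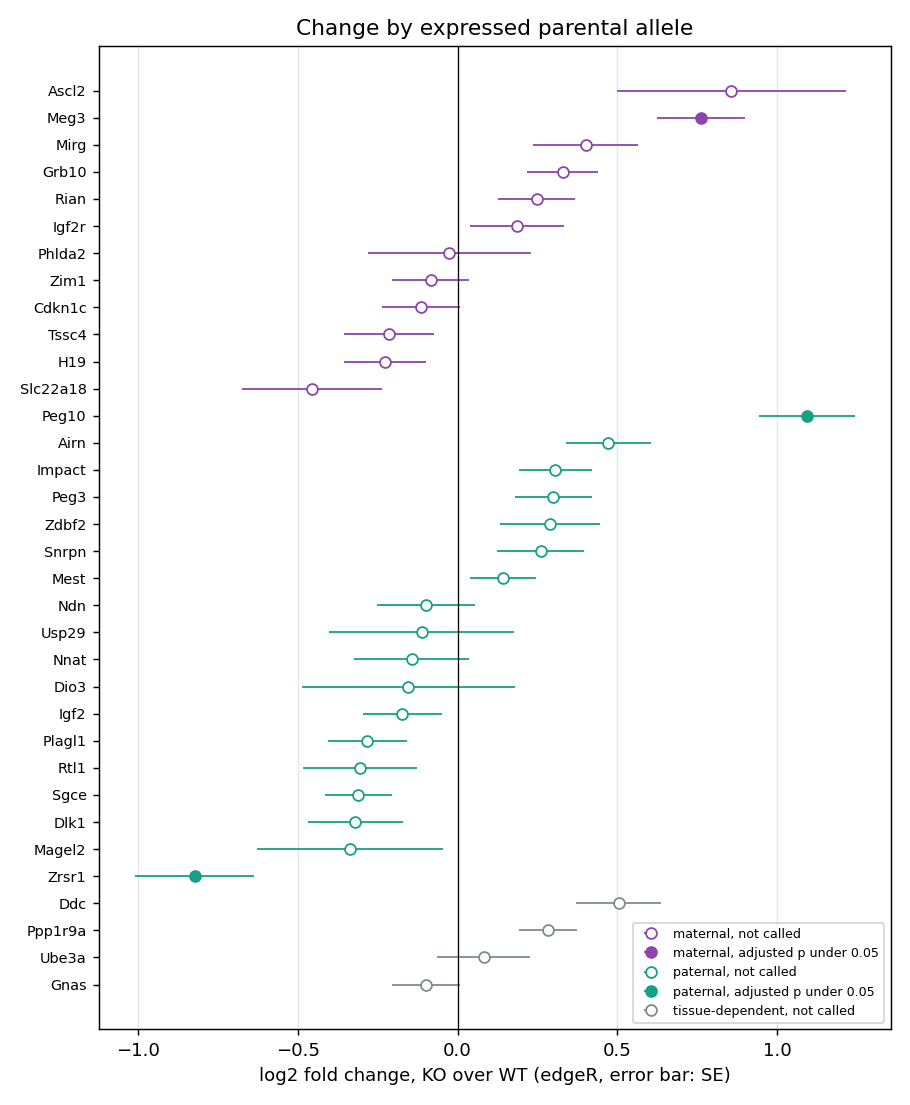
Log2 fold change of KO over WT with its SE for each imprinted gene (edgeR), grouped from top to bottom into maternally expressed, paternally expressed and tissue-dependent genes. Filled points mark the 3 genes that passed (Meg3, Peg10 and Zrsr1), and both parental classes straddle 0.

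Further imprinted genes, and the factors that keep imprints, were read from further lists. Of 40 tested imprinted genes outside the list of 36, 2 were lower in KO and none higher with edgeR, limma-voom and DESeq2 alike. With edgeR that was 5% lower, against 3.43% of all tested genes, a share near that background. An unadjusted edgeR p under 0.05 was found for 7 of the 40 (5 lower and 2 higher) and for 21.8% of all tested genes. The 40 had a median log2 difference of 0.009. Commd1, described above, was 1 of the 2 called. The other was Tspan32, a tetraspanin of blood cells at the edge of the Kcnq1 cluster, with 25.6, 24.6 and 25.8 CPM in KO, against 51.5, 36.8, 50.2 and 56.1 CPM in WT. Its log2 fold change was -0.94 with an SE of 0.14 (edgeR adjusted p = 0.00676), and it passed under all 15 alternatives. Erythroid markers fell beside it, with 10 of 15 lower and a summed level of 12467 to 16847 CPM in KO and 50492 to 90823 CPM in WT, and macrophage markers with 6 of 10 lower and 166 to 205 CPM in KO and 249.7 to 290.4 CPM in WT. Their part in the Tspan32 result was not tested. Among 26 tested factors of imprint maintenance, 2 were higher and none lower with edgeR, limma-voom and DESeq2. With edgeR that was 7.69% higher, against 1.59% of all tested genes. By an unadjusted edgeR p under 0.05, 3 were higher and none lower, against 21.8% of all tested genes in either direction. Zfp57, the zinc finger protein that holds methylation at imprinted control regions, had 49.7, 60.3 and 62.1 CPM in KO, against 35.1, 36.8, 28.5 and 40.2 CPM in WT. The KO libraries were all above WT. The log2 fold change was 0.71 with an SE of 0.13 (edgeR adjusted p = 0.0164), but the call ended without KO replicate 4 (0.0568) or KO replicate 5 (0.0973). Tet2, an enzyme that oxidises methylcytosine, had 33.6, 33.6 and 34.0 CPM in KO, against 23.6, 27.4, 25.4 and 21.2 CPM in WT, a log2 fold change of 0.47 with an SE of 0.11 (edgeR adjusted p = 0.0400). Its call ended when any library but WT replicate 2 was left out (up to 0.159). Dnmt1, the maintenance methyltransferase, had 313 ± 30.1 CPM in KO (SD, n = 3) and 311 ± 28.4 CPM in WT (SD, n = 4), a log2 difference of 0.0072 with an SE of 0.11 (edgeR adjusted p = 0.977).

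Markers of other cell types and tissues were summed per library, since several imprinted genes are strong in mesenchyme, nerve and endocrine cells. Of all tested genes, edgeR called 1.59% higher and 3.43% lower, and 21.8% had an unadjusted p under 0.05. Hepatoblast markers had 7389 to 9678 CPM in KO and 5565 to 12494 CPM in WT, with none of 19 called by edgeR, 1 lower by DESeq2 and 2 lower by an unadjusted edgeR p under 0.05, and stellate and mesenchymal markers 3858 to 4372 CPM in KO and 3914 to 5634 CPM in WT (1 of 18 higher and 2 lower). Mesothelial markers had 1029 to 1159 CPM in KO and 1079 to 1245 CPM in WT (1 of 9 lower), gut markers 55.9 to 100.04 CPM in KO and 62.1 to 97.0 CPM in WT and skeletal muscle markers 91.3 to 129 CPM in KO and 89.5 to 183 CPM in WT. Neural markers had 178 to 189.5 CPM in KO and 143 to 228 CPM in WT. Adrenal chromaffin markers had 11.2 to 22.5 CPM in KO and 7.33 to 64.6 CPM in WT, and adrenal cortex markers 6.97 to 7.81 CPM in KO and 12.999 to 38.5 CPM in WT (1 of 5 lower). Among the WT libraries, replicate 2 held the highest sum for 10 of the 13 marker lists, all but hepatoblast, erythroid and endothelial. It also held the highest WT level of 19 of the 34 imprinted genes, Peg10 among them, but not of Meg3 or Zrsr1. Without WT replicate 2 the log2 fold changes were 1.17 for Peg10, 0.68 for Meg3 and -0.91 for Zrsr1, and all 3 still passed (edgeR adjusted p = 0.00328, 0.0211 and 0.0211). What other cell types contribute to the imprinted genes in that library was not tested.

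The authors' deposited table gives log2 fold changes of the same sign as edgeR for all 34 imprinted genes. At its adjusted p under 0.05, 5 of the 34 were higher (14.7%) and 1 lower (2.94%), against 4.06% and 6.86% of its 15548 genes. Those higher in the authors' deposited table were Peg10 at 1.07 (adjusted p = 3.41e-10), Meg3 at 0.74 (adjusted p = 1.96e-05), Ddc at 0.49 (adjusted p = 0.0114), Airn at 0.46 (adjusted p = 0.0218) and Grb10 at 0.32 (adjusted p = 0.0236). The 1 lower in the authors' deposited table was Zrsr1 at -0.81 (adjusted p = 0.000741). Peg10, Meg3 and Zrsr1 are therefore called in both, while Ddc, Airn and Grb10 passed there and missed the edgeR threshold.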

How the data were processed

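Each library's file holds raw read counts per gene, as deposited by the authors, for 38924 genes, with 5 HTSeq summary lines that were left out of library sizes. Reads in no gene made up 6.75 to 7.61% of the total in KO and 4.89 to 5.94% in WT. Per the submitters' processing notes, cutadapt 1.4.2, TopHat2, HTSeq, DESeq2 and DESeq were used with build mm10, with no settings stated. The authors' deposited table holds a mean normalized count as its baseline signal, a log2 fold change of KO over WT, its standard error, a Wald score (their quotient), and a p-value, unadjusted and adjusted.

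The counts went into edgeR 4.0.16 (R 4.3.3), where filterByExpr kept 16226 genes and removed 22698. TMM factors ran from 1.04 to 1.07 in KO and from 0.917 to 1.02 in WT. The quasi-likelihood test compared KO with WT over all 7 libraries with no covariate, and the procedure was tested on simulated data. SEs were derived from the quasi-likelihood F statistic. Other settings tried were total-count scaling, RLE size factors, counts without globin genes, an unfiltered table, at least 5 CPM in at least 3 libraries, limma-voom (limma 3.58.1), DESeq2 1.42.0, a replicate block and each library left out.

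Names came from the authors' table, or from GENCODE M21 (mm10) for genes outside it. IDs were matched without their version. Coordinates and exon lengths came from that release, which may not be the one counted. The imprinted genes and all lists were chosen with earlier results of these data known, so counts over them carry no test. Values of every library are given for genes called or with a mean of at least 10 CPM (27 of 34), and the other 7 are given by ranges. Of other lists, the called genes are named. Impact lies on chromosome 18, and no sequence of it was used.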

Additional observations from a re-analysis of the deposited data

Results flagged for a closer look

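In 3 of the 34 imprinted genes, 1 of the 4 WT libraries stood far from the other 3. Chance alone flags about 1 in 20 groups. Dlk1 was low in WT replicate 1, at 699.9 CPM, while WT replicates 2, 3 and 4 had 871, 906 and 896 CPM. Ascl2 was low in WT replicate 3, at 0.328 CPM, against 0.508, 0.513 and 0.506 CPM. Zdbf2 was high in WT replicate 2, at 59.3 CPM, against 42.1, 40.6 and 39.5 CPM. Without WT replicate 1 the log2 difference of Dlk1 was -0.40, without WT replicate 3 that of Ascl2 was 0.72, and without WT replicate 2 that of Zdbf2 was 0.43, and none of the 3 was called by edgeR there (adjusted p = 0.167, 0.352 and 0.0548).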

How the results depend on the processing

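Of all tested genes, 258 were higher and 556 lower in KO. With total-count scaling 651 were higher and 393 lower, so that more were higher than lower, with DESeq2 617 higher and 1057 lower, and leaving out 1 library gave 24 to 418 higher and 116 to 753 lower. Imprinted genes called higher numbered 2, but 5 with total-count scaling, 5 with DESeq2, and 1 to 4 with 1 library left out. Those called lower numbered 1, and 0 to 1 with 1 library left out. Over the lists of other imprinted genes, imprint maintenance and the IGF axis, 4 were higher and 2 lower, with 8 and 1 under total-count scaling, 7 higher with DESeq2, and 0 to 4 higher and 1 to 2 lower with 1 library left out. The cause of these shifts was not tested.

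A replicate block on the number in the titles, where only numbers 3 and 4 occur in both groups, gave 852 genes higher and 1204 lower. This fit takes its difference from replicates 3 and 4 of each group only, since every other number occurs in 1 group. It called 5 imprinted genes higher (Peg10, Meg3, Ddc, Airn and Zdbf2) and 1 lower, and 10 genes of the other lists higher. The deviations from the group means correlated at 0.319 for number 3 and 0.258 for number 4 across genes. Between unlike numbers they correlated at -0.271 (KO replicate 3 with WT replicate 4) and -0.113 (KO replicate 4 with WT replicate 3). With 2 such pairs and no label that says so, the numbers do not establish a pairing.

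Over all alternatives 26 of the 34 imprinted genes kept their sign, and the 8 others were not called under any. Signs turned with total-count scaling for Usp29 (0.00019), Zim1 (0.035), Cdkn1c (0.0045), Phlda2 (0.10), Ndn (0.020) and Gnas (0.023). They turned with the replicate block for Dio3 (0.035), without WT replicate 2 for Usp29 (0.049) and Dio3 (0.086), without WT replicate 3 for Phlda2 (0.047), and without KO replicate 3 for Phlda2 (0.23), Ndn (0.041) and Ube3a (-0.061). With 1 library left out, log2 differences ran from -0.26 to 0.049 for Usp29, from -0.37 to 0.086 for Dio3, from -0.21 to 0.23 for Phlda2, from -0.20 to 0.041 for Ndn and from -0.061 to 0.23 for Ube3a. Depth limits the 7 imprinted genes under 10 CPM.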
